A study of Homo sapiens with 10 samples.

Results

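Keratins are the intermediate filament proteins of epithelial cells, and 8 of them that are used to tell the cell layers of the breast apart were followed through the RNA-seq libraries of T47D cells. The luminal set held *KRT7*, *KRT8*, *KRT18* and *KRT19*, and the basal set held *KRT5*, *KRT14*, *KRT15* and *KRT17*. The members were chosen by name from their established use as layer markers, with earlier results of these data known. All 8 had a row among the 19695 genes with a read count in the series, although *KRT5* had no count in the libraries of the CHD4 table and no row there.

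The T47D line was established from a human breast carcinoma and is of luminal, estrogen receptor-positive type. The cells had been transfected with a control small interfering RNA (siRNA), with TRPS1 siRNA or with CHD4 siRNA, and total RNA was taken 72 h later, with 2 libraries for each of the 3 groups. No other agent or genetic change was named for any group, so the groups shared the line, the transfection and the time. The labels name the CHD4 arm as siRNA, whereas the methods of the study name a short hairpin RNA at that step. TRPS1 is a GATA-type zinc finger protein that represses transcription, and CHD4 is the chromatin remodelling ATPase of the NuRD complex. The comparisons ask how the transcriptome of a luminal line differs after silencing of each gene. The model is 1 cell line, and nothing says that the 2 libraries of a group came from separate cultures, so the p-values measure only the spread between these libraries. In addition, a peak list of TRPS1 chromatin immunoprecipitation sequencing (ChIP-seq) from T47D cells was used to place TRPS1 binding around the keratin genes.

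Keratin filaments are built from obligate pairs of a type I (acidic) and a type II (basic) keratin. In simple epithelia and in the luminal cells of the mammary duct the main pair is keratin 8 (type II) with keratin 18 (type I), accompanied by keratin 19 (type I) and keratin 7 (type II). Basal and myoepithelial cells instead use keratin 5 (type II) with keratin 14 (type I), together with the type I keratins 15 and 17. Type II keratin genes lie in a cluster on chromosome 12 and type I genes in a cluster on chromosome 17, with the exception of *KRT18*, which lies beside *KRT8* on chromosome 12.

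The 5 siRNAs that the study lists for the control and the 2 targets are shown because the groups are labelled by siRNA. They are written 5′ to 3′ as the oligonucleotide table of the study gives them. The table holds a pair of sequences for TRPS1 and for CHD4, and the labels do not say which of the pair, or whether a mixture, went into the sequenced cells.
Control siRNA: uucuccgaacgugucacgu
TRPS1 siRNA#1: gucccuugaauguaguaaa
TRPS1 siRNA#2: gcacacagcugcuacaaau
CHD4 siRNA#1: cgggaguucaguaccaaua
CHD4 siRNA#2: gggcugcuuacuugaacau

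Total counts per library ran from 10333138 to 14668358. Levels are given as CPM, read counts relative to the library total, scaled by the trimmed mean of M-values (TMM) over the 6 libraries, in which the 3 counts taken as the lowest reliable level correspond to 0.197 to 0.288 TMM CPM. *TRPS1* read 1448 and 2274 TMM CPM with control siRNA, 1169 and 723 with TRPS1 siRNA, and 2455 and 1591 with CHD4 siRNA. Its log2 fold change upon TRPS1 silencing was -0.97 (SE 0.39, adjusted p = 0.659). *CHD4* read 301 and 286 TMM CPM with control siRNA and 96.0 and 54.4 with CHD4 siRNA, a log2 fold change of -1.96 (SE 0.42, adjusted p = 0.784). Both targets were thus lower in the libraries labelled with their own siRNA, at 50.8% of the control mean for *TRPS1* and 25.6% for *CHD4*. Control siRNA replicate 1 stood apart from the rest, at -91.2 on a first principal component that held 58.7% of the variance, against 7.44 to 24.8 for the other libraries, and the replicate correlation was 0.898 in the control group, 0.978 in the TRPS1 siRNA group and 0.970 in the CHD4 siRNA group. The keratin fold changes against control siRNA are therefore given with and without that library. Group means, percents of the control mean and correlations between genes include it. In bulk RNA, fewer cells of a type and less RNA per cell cannot be told apart.

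The luminal keratins *KRT8*, *KRT18* and *KRT19* were expressed at high levels in every library, *KRT7* at a moderate level and *KRT15* at a low level. *KRT17*, *KRT14* and *KRT5* were near or below the 3-count level in most libraries. Reads were not divided by transcript length, so levels are compared between libraries of a gene and not between genes. The luminal identity given for the line was thus matched at the keratin level, since the defining basal pair *KRT5* and *KRT14* was at 0 counts in 4 and 3 of the 6 libraries, respectively.

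**Figure D1:**
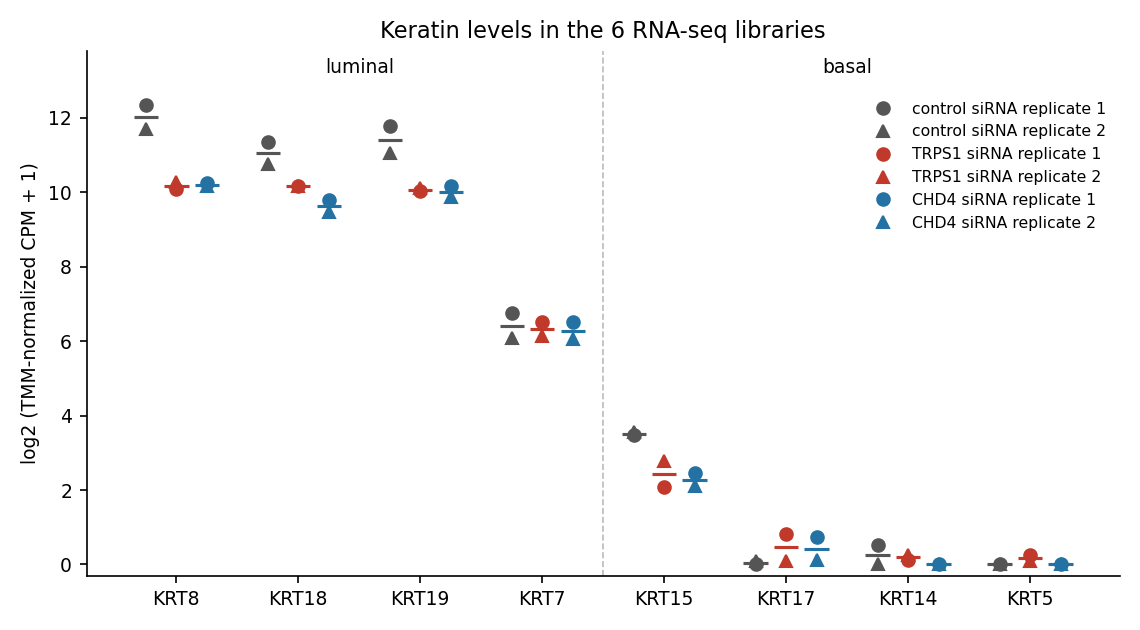
Level of the 8 keratins as log2 of TMM CPM + 1 (vertical axis), with a point for each of the 6 libraries and a line at the group mean. *KRT8* stood at 3343 and 5208 TMM CPM in the control libraries and between 1077 and 1235 in the 4 silenced libraries, whereas *KRT7* stood between 65.8 and 106 in all groups.

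*KRT8*, the type II partner of the simple epithelial pair, had 70921 and 44219 counts in the control libraries, 11211 and 18779 with TRPS1 siRNA, and 12915 and 14289 with CHD4 siRNA. On the TMM CPM scale these were 5208 and 3343, 1077 and 1235, and 1208 and 1149. All 4 silenced libraries lay below both control libraries, and the spread within the silenced groups (1156 ± 112 and 1178 ± 41.9, SD, n = 2) was smaller than in the control group (4276 ± 1318, SD, n = 2). The group means with TRPS1 and CHD4 siRNA were 27.0% and 27.6% of the control mean.

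*KRT18*, the type I partner of *KRT8*, read 2606 and 1741 TMM CPM with control siRNA, 1139 and 1153 with TRPS1 siRNA, and 883 and 702 with CHD4 siRNA. The 3 groups did not overlap, and the means of 1146 ± 9.94 and 793 ± 128 (SD, n = 2) were 52.7% and 36.5% of the control mean of 2173 ± 612 (SD, n = 2). *KRT18* was, of the 5 keratins tested, the one in which the silenced groups stood furthest from each other.

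*KRT19*, a type I keratin of simple epithelia that lacks most of the tail domain, read 3530 and 2114 TMM CPM with control siRNA, 1051 and 1098 with TRPS1 siRNA, and 1138 and 938 with CHD4 siRNA. Both silenced groups lay below the control libraries and overlapped each other, with means at 38.1% and 36.8% of the control mean of 2822 ± 1002 (SD, n = 2).

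*KRT7*, the type II keratin of ductal and glandular epithelia, was the luminal member whose groups overlapped in every comparison. It read 106 and 67.3 TMM CPM with control siRNA, 89.9 and 70.0 with TRPS1 siRNA, and 89.8 and 65.8 with CHD4 siRNA. The group means were 86.8 ± 27.6, 79.9 ± 14.1 and 77.8 ± 16.9 (SD, n = 2).

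*KRT15*, a type I keratin of basal cells, was the basal member with a measurable level. It had 137 and 142 counts with control siRNA, 34 and 90 with TRPS1 siRNA, and 48 and 41 with CHD4 siRNA. Its TMM CPM were 10.1 and 10.7, 3.27 and 5.92, and 4.49 and 3.30, so that both silenced groups lay below the control libraries. The means of 4.59 ± 1.88 and 3.89 ± 0.844 (SD, n = 2) were 44.2% and 37.4% of the control mean of 10.4 ± 0.479 (SD, n = 2).

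The remaining basal keratins were too low to be compared, and no fold is given for them. *KRT17*, a type I keratin of basal and wound-edge cells, had 0 and 1 counts with control siRNA, 8 and 1 with TRPS1 siRNA, and 7 and 1 with CHD4 siRNA. *KRT14*, the type I partner of keratin 5, had 6 and 0, 1 and 3, and 0 and 0 counts in the same order. *KRT5*, its type II partner, had 0 and 0, 2 and 1, and 0 and 0 counts. In *KRT17* the counts above 3 came from replicate 1 of each silenced group, with 1 count in replicate 2, and any difference in these 3 genes was not detectable at this depth.

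Upon TRPS1 silencing, 5 of the 8 keratins passed the filter (a level above 2 CPM in 2 or more of the 4 libraries compared), namely the 4 luminal keratins and *KRT15*. With edgeR's quasi-likelihood test and the threshold of the study (fold change over 2 and unadjusted p under 0.05), 2 of the 4 luminal keratins and 0 of 1 tested basal keratins were called lower, and 0 were called higher. Of all 12921 genes tested, 3.17% were called lower and 2.7% higher, 5.87% in both directions. *KRT8* gave a log2 fold change of -1.88 (SE 0.35, adjusted p = 0.659), at rank 8 of 12921 genes by p. *KRT19* gave -1.39 (SE 0.36, adjusted p = 0.659). These were the called members. *KRT18* had a log2 fold change of -0.92 (SE 0.33), past the p threshold but short of the 2-fold limit. *KRT15* stood at -1.16 (SE 0.53) and missed the p threshold. For *KRT7* the log2 fold change was -0.12 (SE 0.38, adjusted p = 0.928), with a sign that turned to 0.01 under scaling by library sizes alone, and it met neither limit. The median over the 5 tested keratins was -1.16, against -0.02 over all genes tested. In 4 of the 5 tested keratins both silenced libraries lay below both control libraries, as did 21.6% of all genes tested.

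No gene tested, and so no keratin, reached an adjusted p under 0.05 upon TRPS1 silencing in edgeR's quasi-likelihood test, in which the smallest adjusted p was 0.659 and 902 genes (6.98%) had an unadjusted p under 0.05. DESeq2 placed 39 genes (0.302%) under that limit and edgeR's likelihood ratio test 34 (0.263%), *KRT8* among them with adjusted p = 0.00444 and 0.00861. The value of *KRT8* without control siRNA replicate 1 was -1.52 (adjusted p = 0.0349, edgeR's quasi-likelihood test), with an adjusted p between 0.00116 and 1.00 over the alternatives run. Without that library *KRT19* stood at -0.97, under the 2-fold limit, *KRT18* at -0.60 and *KRT7* at 0.25, and *KRT15* at -1.19 was called.

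Upon CHD4 silencing the same 5 keratins passed the filter. Here 3 of the 4 luminal keratins and 1 of 1 tested basal keratins were called lower, and 0 were called higher. Of all 12918 genes tested, 2.85% were called lower and 2.6% higher, 5.45% in both directions. *KRT8* gave a log2 fold change of -1.85 (SE 0.37, adjusted p = 0.749), at rank 22 of 12918 genes by p. Its partner *KRT18* gave -1.45 (SE 0.38, adjusted p = 0.792). The other called luminal keratin, *KRT19*, gave -1.43 (SE 0.39, adjusted p = 0.792). The called basal member was *KRT15*, with -1.41 (SE 0.54, adjusted p = 0.792). *KRT7* had a log2 fold change of -0.15 (SE 0.41, adjusted p = 0.939) and met neither limit. The median over the 5 tested keratins was -1.43, against -0.02 over all genes tested. Both silenced libraries lay below both control libraries in 4 of the 5, as they did in 20% of all genes tested.

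As upon TRPS1 silencing, 0 genes reached an adjusted p under 0.05 upon CHD4 silencing in edgeR's quasi-likelihood test, with 769 (5.95%) at an unadjusted p under 0.05, 50 (0.387%) past the adjusted limit by DESeq2 and 58 (0.449%) by edgeR's likelihood ratio test. *KRT8* had adjusted p = 0.749 in the quasi-likelihood test, 0.00349 by DESeq2 and 0.00702 by the likelihood ratio test. The calls rested partly on CHD4 siRNA replicate 2. Without it *KRT8* was still called, whereas *KRT18* (-1.26), *KRT19* (-1.28) and *KRT15* (-1.18) missed the p threshold, and *KRT15* also missed it without CHD4 siRNA replicate 1 (-1.63). Without control siRNA replicate 1 the log2 fold changes were -1.49 for *KRT8*, -1.12 for *KRT18*, -1.01 for *KRT19*, -1.45 for *KRT15* and 0.23 for *KRT7*.

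**Figure D2:**
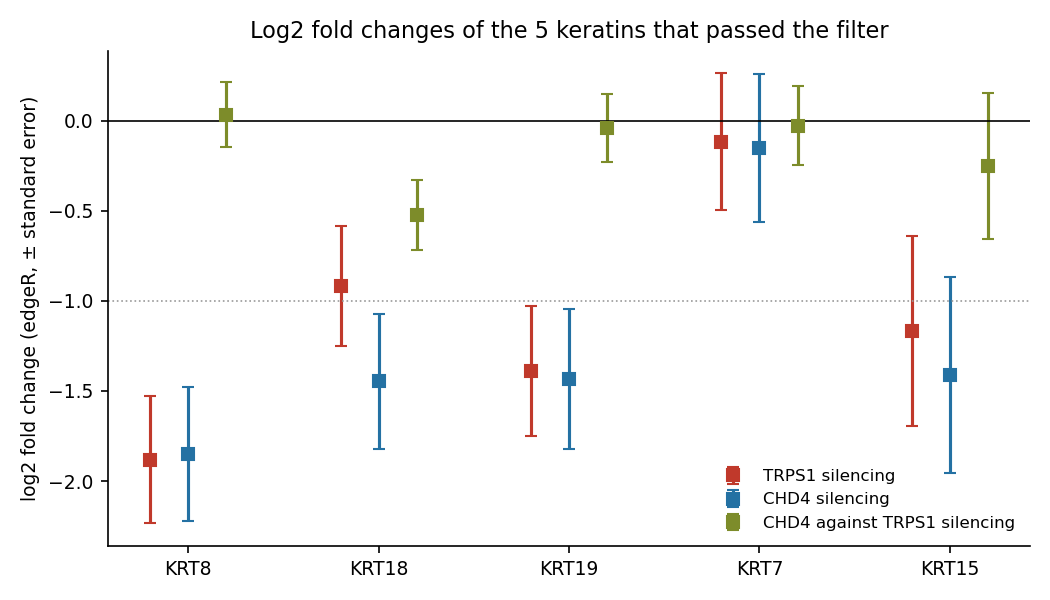
Log2 fold change from edgeR's fit (vertical axis) for the 5 keratins that passed the filter in each of the 3 comparisons, with bars for 1 SE either side and a dotted line at the 2-fold limit. *KRT8* lies at -1.88 and -1.85 in the comparisons with control siRNA and at 0.03 in the direct comparison, while *KRT7* lies within 1 SE of 0 in all 3.

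The comparisons with control siRNA share the same 2 control libraries, so their keratin values are not independent of each other and are given side by side only. The direct comparison of CHD4 with TRPS1 silencing does not use the control libraries. In it 0 of the 5 tested keratins were called in either direction, beside 1.56% of 13143 genes called lower, 2.12% higher and 3.67% in both directions. *KRT18* had a log2 fold change of -0.52 (SE 0.19, adjusted p = 0.283), past the unadjusted p threshold and short of the 2-fold limit, and its groups did not overlap, as in 24.1% of all genes tested for the lower direction. *KRT8* had a log2 fold change of 0.03 (SE 0.18, adjusted p = 0.956). *KRT19* stood at -0.04 (SE 0.19), *KRT7* at -0.03 (SE 0.22) and *KRT15* at -0.25 (SE 0.41). *KRT18* missed the p threshold without either TRPS1 siRNA library (-0.54 and -0.50 without replicates 1 and 2) and without CHD4 siRNA replicate 2 (-0.35), and passed it without CHD4 siRNA replicate 1 (-0.71). Of all genes tested, 0 had an adjusted p under 0.05 in edgeR's quasi-likelihood test, 2023 (15.4%) an unadjusted p under 0.05, 456 (3.47%) an adjusted p under the limit by DESeq2 and 570 (4.34%) by edgeR's likelihood ratio test, with 0 keratins among those of either tool.

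**Figure D3:**
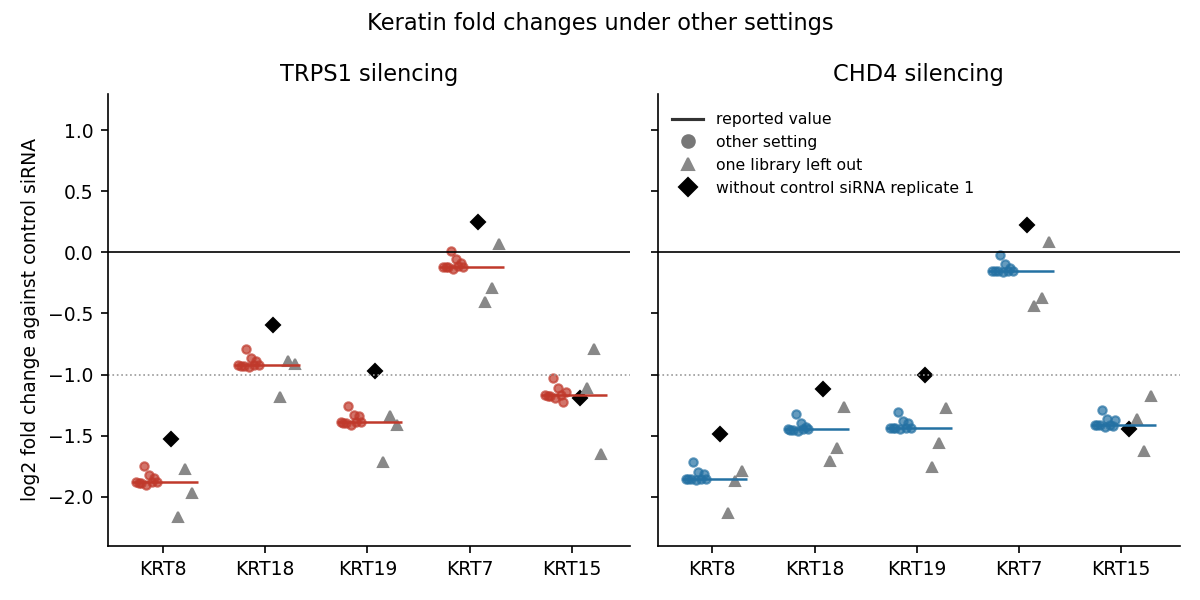
Log2 fold change of each tested keratin against control siRNA (vertical axis) in the reported fit (line), 9 other settings (circles) and 4 fits with a library left out (triangles, or a diamond for control siRNA replicate 1), for TRPS1 silencing (left) and CHD4 silencing (right). *KRT8* runs from -2.17 to -1.52 and from -2.13 to -1.49 over the libraries left out in turn, all below 0, whereas *KRT7* runs from -0.41 to 0.25 and from -0.44 to 0.23.

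The keratins did not keep their proportions to each other. The level of *KRT8* over that of its partner *KRT18* was 2.00 and 1.92 in the control libraries, 0.946 and 1.07 with TRPS1 siRNA, and 1.37 and 1.64 with CHD4 siRNA, so the 3 groups did not overlap. These ratios were chosen after the values of the genes were seen, and with 2 against 2 libraries a two-sided exact permutation test cannot go below p = 0.333, so none is given. A ratio within a library does not depend on the scaling of that library, and the control libraries, which differed in the level of *KRT8*, were close to each other in it. The ratio of *KRT8* to *KRT19* was 1.48 and 1.58 in the control libraries, 1.03 and 1.13 with TRPS1 siRNA, and 1.06 and 1.23 with CHD4 siRNA. *KRT19* over *KRT18* separated only the TRPS1 siRNA group, with 1.35 and 1.21 in the control libraries, 0.923 and 0.952 with TRPS1 siRNA and 1.29 and 1.34 with CHD4 siRNA. *KRT7* amounted to 2.04% and 2.01% of the *KRT8* level in the control libraries, 8.34% and 5.67% with TRPS1 siRNA, and 7.43% and 5.73% with CHD4 siRNA.

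**Figure D4:**
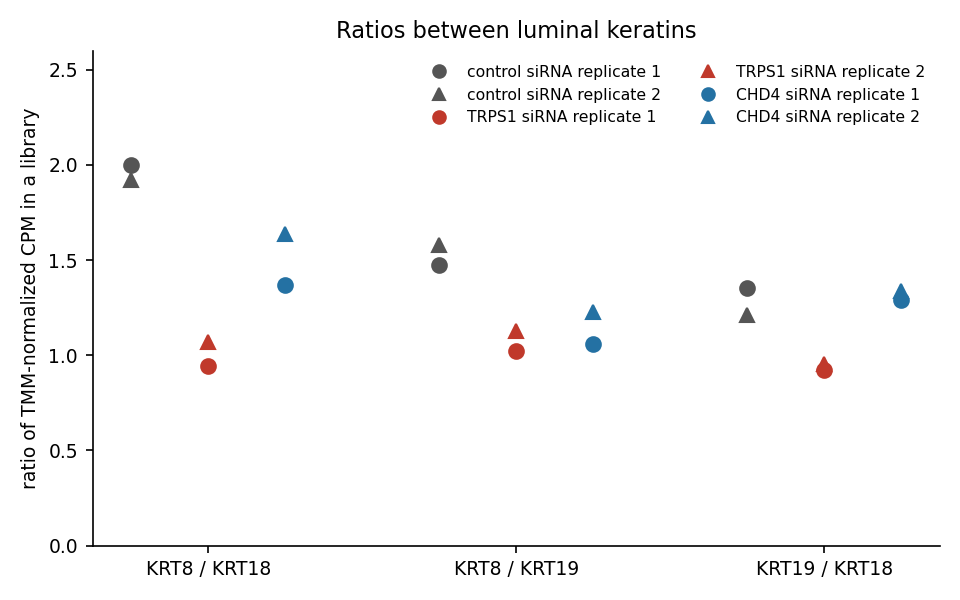
Ratios of TMM CPM between luminal keratins within a library (vertical axis), with a point for each of the 2 libraries of a siRNA group. *KRT8* over *KRT18* is at 1.92 and 2.00 in the control libraries, 0.946 and 1.07 with TRPS1 siRNA and 1.37 and 1.64 with CHD4 siRNA.

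As a class, the 4 luminal keratins took 1.06% and 0.689% of all counts in the control libraries, 0.338% and 0.372% with TRPS1 siRNA, and 0.330% and 0.305% with CHD4 siRNA. Their summed level was 11450 and 7265 TMM CPM, 3357 and 3556, and 3319 and 2854 in the same order. The summed level of the 4 basal keratins was 10.5 and 10.8, 4.32 and 6.25, and 5.14 and 3.38 TMM CPM, of which *KRT15* gave between 75.6% and 99.3% of the counts. The log2 ratio of the luminal to the basal sum was 9.74 ± 0.49 with control siRNA, 9.38 ± 0.32 with TRPS1 siRNA and 9.53 ± 0.28 with CHD4 siRNA (SD, n = 2). The 3 groups overlapped in this ratio of sums, in which *KRT15* gives most of the denominator. With the median of log2(TMM CPM + 0.5) of each class in place of the sum, the log2 ratio was 12.11 and 11.80 in the control libraries, 10.15 and 10.81 with TRPS1 siRNA, and 10.37 and 10.56 with CHD4 siRNA, so that both silenced groups lay below the control libraries. The basal median rests on genes at 0 to 8 counts.

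Over the 6 libraries the log2 levels of *KRT8* and *KRT19* ran closest together, with Pearson r = 0.988. The values were 0.945 for *KRT18* with *KRT19*, 0.916 for *KRT8* with *KRT18*, and 0.910, 0.866 and 0.884 for *KRT15* with *KRT8*, *KRT18* and *KRT19*, respectively. *KRT7* had r between 0.119 and 0.482 with the other 4. These are descriptions over libraries that fall into 3 groups and share their scaling, and they carry no test.

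Among 12657 genes searched, those whose log2 level over the 6 libraries was most like that of *KRT8* were *TRIM37* (r = 0.998), *CAPZB* (0.997) and *GART* (0.995). *KRT18* was most like *USP39* (0.997), *CCDC167* (0.997) and *FKBP4* (0.996). The closest to *KRT19* were *UBE3B* (0.999), *FDFT1* (0.998) and *PLPP5* (0.997). *KRT7* ran with *SLC12A7* (0.996), *SCNN1D* (0.990) and *KRT80* (0.990), a type II keratin. For *KRT15* the closest were *INSIG1* (0.995), *CHTF8* (0.993) and *ACSL3* (0.987). These values name a likeness of pattern over 6 libraries and carry no test.

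The other keratins were mostly silent in these cells, with a count for 21 of the 47 listed genes and 3, 3 and 4 tested in the 3 comparisons. *KRT80*, the most abundant of them, read 124 and 66.0 TMM CPM with control siRNA, 97.5 and 67.5 with TRPS1 siRNA and 101 and 69.2 with CHD4 siRNA, with overlapping groups. *KRT10*, the type I keratin of differentiated epidermis, had 159 and 304, 173 and 243, and 283 and 200 counts in the same order of groups, and its TMM CPM also overlapped. By edgeR's quasi-likelihood test 0 genes of this list were called lower in any comparison, beside 3.17%, 2.85% and 1.56% of all genes tested. In each comparison with control siRNA 1 was called higher, beside 2.7% and 2.6% of all genes tested. *KRT222* was called higher upon TRPS1 silencing (log2 fold change 2.96, SE 0.78, from 3 and 5 to 22 and 40 counts) and *KRT86*, a type II hair keratin, upon CHD4 silencing (2.65, SE 0.94, from 3 and 10 to 45 and 25 counts). Each was under the filter in the other comparison with control siRNA, where *KRT222* had 11 and 30 counts with CHD4 siRNA and *KRT86* had 35 and 24 with TRPS1 siRNA. The control counts of both are close to the 3-count level, so the size of these folds is loosely fixed. Each passed the filter through its silenced libraries alone, so it could hardly have been called lower. *KRT86* shares much sequence with its neighbouring hair keratin genes, and its reads may be split among them. With no low count filter *KRT222* and *KRT86* were called higher upon TRPS1 silencing. Upon CHD4 silencing *KRT81* and *KRT86* were then called higher and *KRT13* lower. *KRT13* had 22 and 12 counts with control siRNA, 1 and 3 with TRPS1 siRNA, and 0 and 3 with CHD4 siRNA.

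Keratin filaments are anchored at cell junctions by desmosomes and at the basement membrane by hemidesmosomes. Of 16 desmosome genes, 10 were tested upon TRPS1 silencing and 11 upon CHD4 silencing, with 0 called lower and 1 called higher in each by edgeR's quasi-likelihood test, beside 3.17% and 2.7% (TRPS1) and 2.85% and 2.6% (CHD4) of all genes tested. That gene was *PERP*, a membrane protein of desmosomes, at 26.4 and 42.3 TMM CPM with control siRNA, 94.5 and 116 with TRPS1 siRNA, and 99.8 and 129 with CHD4 siRNA (log2 fold change 1.62, SE 0.39, and 1.74, SE 0.42). It missed the p threshold without TRPS1 siRNA replicate 2 (1.47) and without CHD4 siRNA replicate 2 (1.57), respectively. *DSP*, desmoplakin, which ties keratin filaments to the desmosome, had log2 fold changes of 0.04 and -0.07 and was not called. *DSG2*, desmoglein 2, stood at -0.11 and 0.05, uncalled. *JUP*, plakoglobin, stood at -0.87 and -1.07, uncalled, but at 0.13 and -0.08 without control siRNA replicate 1, which read 1255 TMM CPM against 423 in replicate 2. Upon CHD4 silencing *JUP* and *PKP3*, plakophilin 3, were also called lower by DESeq2 and with no low count filter. In the direct comparison 0 of 11 desmosome genes were called, and 0 under the 13 alternatives.

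Of 9 hemidesmosome genes, 8 were tested in each comparison with control siRNA, with 0 called lower and 1 called higher in each by edgeR's quasi-likelihood test, beside the same shares of all genes. *DST*, which encodes the hemidesmosome plakin BPAG1, was called higher upon TRPS1 silencing (log2 fold change 1.18, SE 0.44), but not without control siRNA replicate 1 (0.73), TRPS1 siRNA replicate 1 (1.02) or TRPS1 siRNA replicate 2 (1.35). *LAMB3*, a chain of laminin 332, was called higher upon CHD4 silencing (1.28, SE 0.51), but not without CHD4 siRNA replicate 1 (1.58) or replicate 2 (0.97), nor in the fit over all 6 libraries (1.28). Plectin, *PLEC*, stood at 0.65 and 0.56, uncalled, and at 1.07 (called) and 0.99 without control siRNA replicate 1. The integrin beta chain *ITGB4* stood at -0.56 and -1.13, uncalled, but at 0.43 and -0.13 without that library, in which it read 318 TMM CPM against 107 in control siRNA replicate 2. Upon CHD4 silencing *ITGB4* was called lower by the likelihood ratio test, by DESeq2 and with no low count filter. In the direct comparison 0 of 8 were called by the quasi-likelihood test. *LAMB3*, at 1.08 there, was called higher in 6 of the 13 alternatives, among them the likelihood ratio test, DESeq2 (1.09 each) and the replicate block (1.16).

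Among 18 luminal breast markers other than keratins, 17 were tested upon TRPS1 silencing and 16 upon CHD4 silencing, with 2 called lower and 0 higher in each by edgeR's quasi-likelihood test, beside 3.17% and 2.85% of all genes tested called lower. *XBP1*, a transcription factor of the secretory pathway, had a log2 fold change of -1.03 in both comparisons, and lost its call without TRPS1 siRNA replicate 1 (-1.17), TRPS1 siRNA replicate 2 (-0.88) or CHD4 siRNA replicate 2 (-0.62). Its call was also lost with library sizes alone (-0.91 and -0.92) and with over 2 CPM in all 4 libraries (-0.98 and -0.99). *SPDEF*, an ETS factor of luminal cells, stood at -1.31 and -1.34, but at -0.40 and -0.41 without control siRNA replicate 1, and it was not called without either silenced library of a comparison (-1.60 and -1.05 without TRPS1 siRNA replicates 1 and 2, -1.59 and -1.08 without CHD4 siRNA replicates 1 and 2). *SPDEF* was also uncalled upon TRPS1 silencing with library sizes alone (-1.18), where 0 luminal markers were called. The estrogen receptor gene *ESR1* (-0.61 and -0.61) and *FOXA1* (-0.25 and 0.21) were not called. *GATA3* (-0.48 and -0.88) was not called either, and stood at 0.15 and -0.24 without control siRNA replicate 1. The progesterone receptor gene *PGR* (-0.68 and -0.07), the prolactin receptor gene *PRLR* (-0.49 and -0.91) and the cadherin gene *CDH1* (-0.16 and -0.29) were uncalled, and stood at -1.27 (called) and -0.66, -0.98 and -1.39 (called), and 0.05 and -0.07 without that library. Over the alternatives with all libraries kept, the count called lower ran from 0 to 2 upon TRPS1 silencing and from 1 to 3 upon CHD4 silencing. It shifted further with a library left out. The count of all genes called also shifted widely in those fits, so the further shift is not read as particular to luminal markers. The median of the list was -0.25 and -0.67, against -1.15 and -1.44 for the 4 luminal keratins. *TFF1* was called lower in the direct comparison, the single call among 17 tested (-2.26, from 2.79 and 3.03 TMM CPM with TRPS1 siRNA to 0.281 and 0.884 with CHD4 siRNA). The luminal markers *ESR1*, *GATA3* and *FOXA1* are named here after their values were seen.

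Among 18 basal and myoepithelial markers other than keratins, 11 were tested upon TRPS1 silencing and 9 upon CHD4 silencing, with 0 called lower and 1 called higher in each by edgeR's quasi-likelihood test, beside 2.7% and 2.6% of all genes tested called higher. The call was *TP63*, the transcription factor of basal epithelial cells, with 27 and 25 counts in the control libraries, 148 and 88 with TRPS1 siRNA, and 267 and 92 with CHD4 siRNA. Its log2 fold changes were 2.36 (SE 0.65) and 3.06 (SE 0.72). The most abundant members were not called. *CDH3*, P-cadherin, stood at -0.02 and 0.06, and at 0.50 and 0.59 without control siRNA replicate 1. *CD44*, a cell surface receptor for hyaluronan, stood at -0.01 and 0.29. *TAGLN*, transgelin, stood at 0.85 and 0.13, but at 1.77 and 1.06 without that library, where it was called higher in both comparisons. *VIM*, vimentin, stood at 2.06 upon TRPS1 silencing, uncalled, and was called higher by the likelihood ratio test (2.07), by DESeq2 (2.07) and with no low count filter (2.03). Over all alternatives that gave a value its log2 fold change ran from -0.03 to 2.91. Over the 9 other settings with all libraries kept, the count called higher ran from 0 to 2 in each comparison with control siRNA, and 0 were called lower. Calls shifted further with a library left out. The share of all genes called in those fits is not given here, so these counts are not read as particular to the list. Below 0 stood 4 of the 11 tested upon TRPS1 silencing and 2 of the 9 upon CHD4 silencing. Among them *EGFR*, named here after its values were seen, stood at -0.87 and -0.32, uncalled. The basal keratins tested alongside these markers were limited to *KRT15*, at -1.16 and -1.41, while *KRT5* and *KRT14* stayed at 0 to 6 counts in every library. *VIM* was called lower in the direct comparison (-2.87), from 180 and 34 counts with TRPS1 siRNA to 12 and 18 with CHD4 siRNA, and the libraries with TRPS1 siRNA differed widely in it. With either library of the higher group left out, *TP63*, *VIM*, *TFF1*, *KRT222* and *KRT86* no longer passed the filter in the comparisons that called them and gave no value. They passed it there through the higher group alone, so a call in the other direction was hardly possible. No gene of any of these lists reached an adjusted p under 0.05 in the reported fits of edgeR's quasi-likelihood test, which have no replicate block.

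The summed level of the 18 basal and myoepithelial markers was 432 and 273 TMM CPM with control siRNA, 394 and 385 with TRPS1 siRNA and 426 and 396 with CHD4 siRNA, with the smooth muscle myosin *MYH11* at 0 in all 6 libraries. Markers of other cell types were near 0 apart from *COL1A1*. The 6 fibroblast markers summed to 157 and 63.7, 107 and 80.9, and 90.9 and 61.1 TMM CPM, nearly all from *COL1A1*, with *PDGFRB* at 0 to 22 counts and *LUM* at 0 to 3. The 5 leukocyte markers summed to between 1.47 and 5.06 TMM CPM, mostly from *CD68* with *LYZ* and *PTPRC* at 0 to 4 counts. The 4 endothelial markers, among them *VWF*, *KDR* and *CDH5*, summed to between 0.0734 and 1.68. The 18 luminal markers summed to 8449 and 12119, 8187 and 6418, and 8239 and 5236 TMM CPM. The part of these marker levels in the keratin differences was not tested.

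The TRPS1 peak list held 1844 peaks on hg38, with a median width of 288 bases, called by the authors with MACS2 and given as 1 list without replicate values. Gene bounds were taken from RefSeq on GRCh38.p14, the same build. *KRT8* spans chr12:52897191-52949860 and *KRT18* spans chr12:52948855-52952906, so their bounds overlap by 1006 bases. The strand setting of the counting is not given in the sources used here, and reads in the shared stretch cannot be assigned to either gene with certainty. The RefSeq table also holds 52 pseudogenes of *KRT8*, 68 of *KRT18*, 5 of *KRT19* and 8 of *KRT17*, of which 4 had a count in any library, at most 6, so reads shared with near-identical copies remain uncertain for these genes.

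TRPS1 peaks lay around *KRT8* and *KRT18*. The peak nearest to the bounds of *KRT8* from outside, chr12:52895217-52895630, lay 1.56 kb from them, and the peak at chr12:52945912-52946284 lay within the bounds of *KRT8* and 2.57 kb from those of *KRT18*. Further peaks stood on the *KRT18* side, at chr12:52969998-52970817 (17.1 kb from *KRT18*), chr12:52971555-52972272 (18.6 kb) and chr12:52980776-52981094 (27.9 kb). Within 50 kb of the gene bounds there were 5 peaks for *KRT8*, 4 for *KRT18* and 1 for *KRT7*, the last at chr12:52217351-52217627 and 15.6 kb away. There was none for *KRT19* or for the 4 basal keratins. As neighbours, *KRT8* and *KRT18* share 4 of these peaks and are not independent.

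**Figure D5:**
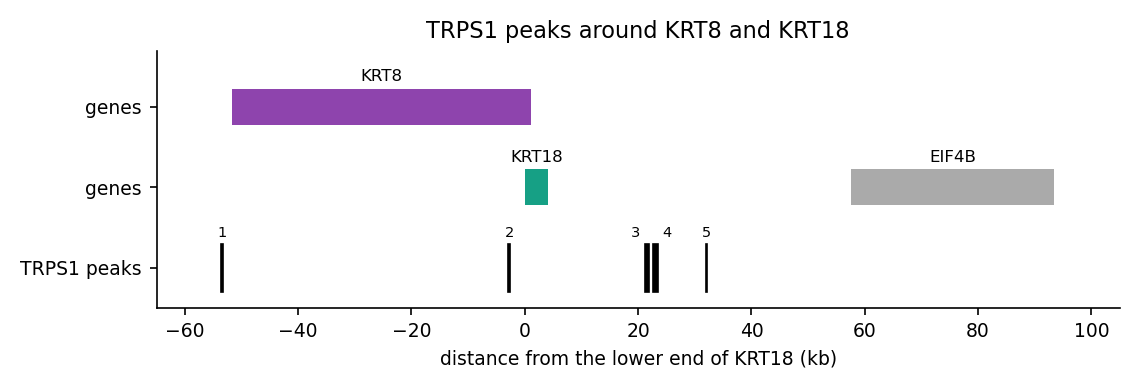
TRPS1 peaks (black, numbered 1 to 5 in the order of their positions) and gene bounds around *KRT8* and *KRT18*, to scale, with the distance in kb from the lower end of *KRT18* on the horizontal axis. Peak 1 lies 1.56 kb outside the bounds of *KRT8*, peak 2 within them, and peaks 3 to 5 lie 17.1 to 27.9 kb from *KRT18*.

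Of 19970 protein-coding genes, 13.3% had a peak within 50 kb of their bounds, and of the 11313 among them that were tested for expression 17.3% had one. At least 4 peaks within 50 kb were found for 35 protein-coding genes (0.175%) and at least 5 for 15 (0.0751%). Among those tested for expression the shares were 0.265% and 0.133%. The window was added to the gene bounds, so a longer gene covers more sequence, and these shares are not matched for gene length. *KRT19*, which was called lower in both comparisons with control siRNA, had its nearest peak 256 kb away, and *KRT15* 265 kb away. *KRT14* and *KRT17* had the same chromosome 17 peak at 197 and 160 kb, and the nearest peak to *KRT5* was 297 kb away. *KRT7*, with a peak at 15.6 kb, was not called. The next gene beyond the peaks on the *KRT18* side, *EIF4B*, a translation initiation factor, had log2 fold changes of -0.78 (SE 0.35) upon TRPS1 silencing and 0.41 (SE 0.38) upon CHD4 silencing. Whether a peak bears on the level of any of these genes was not tested.

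Start sites and upstream sequence were given in the RefSeq promoter table for *KRT8* and *KRT5* among the 8. The start listed for *KRT8*, 52926469 on the minus strand, lies inside the annotated bounds of the gene, 19.4 kb from the nearest peak. The 250 bases upstream of each start (*KRT8*, chr12:52926470-52926719; *KRT5*, chr12:52520395-52520644; both on the minus strand) are printed to show the start region of the luminal keratin with the lowest silenced share of control beside that of a basal keratin that was not detected in 4 of 6 libraries.
KRT8: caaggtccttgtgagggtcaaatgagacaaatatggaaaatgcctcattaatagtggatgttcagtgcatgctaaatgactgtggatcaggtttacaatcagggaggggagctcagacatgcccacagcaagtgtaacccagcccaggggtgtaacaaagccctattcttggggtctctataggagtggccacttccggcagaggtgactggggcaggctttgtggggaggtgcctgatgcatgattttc
KRT5: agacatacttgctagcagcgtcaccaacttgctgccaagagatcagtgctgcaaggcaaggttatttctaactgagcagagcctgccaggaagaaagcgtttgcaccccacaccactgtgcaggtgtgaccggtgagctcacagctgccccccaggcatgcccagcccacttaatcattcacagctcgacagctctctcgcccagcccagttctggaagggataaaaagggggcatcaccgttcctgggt
GATA-type factors recognise longer words around the core letters GATA. The words AGATAA or AGATAG and the words TGATAA or TGATAG were searched on both strands. Neither window holds any of them, whereas 22.9% of the 27303 windows of this length in the table hold at least one. The *KRT5* window holds the core GATA itself in another context, and the absence says only that these 4 words are not in these windows. The GC content was 50.4% for *KRT8* and 56.0% for *KRT5*.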

How the data were processed

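RNA of T47D cells was sequenced after depletion of ribosomal RNA, in 2 libraries for each of 3 siRNA groups, which were assigned from the sample titles. The values are read counts per gene that the authors deposited in a table for each silencing. The control columns of the tables were identical (0 values differed). The study states adaptor and quality trimming, alignment with STAR and counting with HTSeq 0.9.0 (submitters' processing notes and methods). For ChIP-seq it states BWA 0.7.12-r1039 and MACS2 2.1.1, and the deposited list gives the position of each peak (the series has 2 TRPS1 and 2 input libraries) with no height or p-value. The gene annotation and strand setting are not given in the sources used here.

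Counts were fitted with edgeR 4.0.16 (R 4.3.3): TMM scaling, genes above 2 CPM in 2 or more of the 4 libraries compared, a quasi-likelihood F-test without covariates, Benjamini-Hochberg adjustment over all genes tested and a prior count of 0.125. A call needed more than a 2-fold change together with an unadjusted p under 0.05, as in the study. The SE is the absolute log2 fold change over the square root of F. Totals of 10333138 to 14668358 counts per library set the precision, and 3 counts were taken as the floor. The scripts were run on simulated counts with planted changes. This checked the code and does not measure its power at the spread of these libraries. Gene bounds and upstream windows came from RefSeq tables of GRCh38.p14, and distances use bounds because the promoter table gives a start for 2 of the 8 keratins. The siRNA sequences came from the oligonucleotide table of the study.

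All 8 keratins are named. From each other list the called genes, at most 6, and the 3 with the highest mean CPM are named, and for each tested keratin the 3 genes with the highest Pearson r. The members and lists were chosen with earlier results of these data known. The replicate numbers carry no stated shared culture or day, and the deviations of replicate 1 correlated at 0.0883 between the TRPS1 and control siRNA groups, 0.0181 between CHD4 and control, and 0.646 between CHD4 and TRPS1 over 13269 genes, with 2 pairs each. Alternatives were the likelihood ratio test, DESeq2 1.42.0, other scalings and filters, 1 fit over 6 libraries, a replicate block, a prior count of 2, each library left out in turn, and other distances for peaks.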

Additional observations from a re-analysis of the deposited data

How the results depend on the processing

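Each arm has 2 libraries, so leaving a library out leaves an arm with 1 that is assumed to vary like the others. In the 13 alternatives per silencing, *KRT8* was lower with an unadjusted p under 0.05 in all 13, *KRT18*, *KRT19* and *KRT15* were below 0 in all 13 and had p under 0.05 in 9, 13 and 4 of them after TRPS1 siRNA and in 12, 12 and 10 after CHD4 siRNA, and *KRT7* was below 0 in 10 and 11. The number of keratins at an adjusted p under 0.05, 0 as reported, was 1 for either silencing under the likelihood ratio test, DESeq2 and the replicate block, and 1 for CHD4 silencing with no low count filter. It changed further with a library left out. The share of all genes at that limit in those fits is not given here, so the change is not read as particular to keratins. The number of keratins called ran from 2 to 4 upon TRPS1 silencing, reported as 2, and was 3 with all 6 libraries in 1 fit and with over 2 CPM in all 4 libraries. Upon CHD4 silencing it ran from 1 to 4, reported as 4, with 1 without CHD4 siRNA replicate 2. The count of all genes called upon TRPS1 silencing, 759 as reported, was 1359 with no low count filter and 1221 with the replicate block, and ran from 74 to 4304 with a library left out. Upon CHD4 silencing, 704 as reported, it was 1403 with no low count filter and ran from 91 to 3969. In the direct comparison, 483 as reported, it was 751 with no low count filter, 313 with over 2 CPM in all 4 libraries, and ran from 482 to 724. The cause of these shifts was not tested.

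The labels state no shared culture or day for the replicate numbers. The deviations of replicate 1 correlated at 0.646 between the CHD4 and TRPS1 siRNA groups, and at 0.0181 and 0.0883 between these and control. With the replicate block, 3 keratins were called upon CHD4 silencing, since *KRT15* missed the p threshold, and 2 upon TRPS1 silencing. In the direct comparison 1 keratin, *KRT18*, had an adjusted p under 0.05 with the block (0.000652, log2 fold change -0.53), short of the 2-fold limit. There 9 of 17 luminal markers and 5 of 12 basal and myoepithelial markers also had an adjusted p under 0.05 with the block. So did 4 of 11 desmosome genes and 2 of 8 hemidesmosome genes. The share of all genes at that adjusted p with the block is not given here.

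The log2 luminal to basal balance, taken from medians in place of sums, was 11.96, 10.48 and 10.46 in the control, TRPS1 and CHD4 siRNA groups. Taken from sums, it ran over the single libraries from 9.39 to 10.09, 9.15 to 9.60 and 9.33 to 9.72 in the same order. A start site was listed for 2 of the 8 keratins, of which 1 had a peak within 50 kb of it and 0 within 5 kb. The shares of protein-coding genes with a listed start were 10.3% and 2.99%. Measured from gene bounds, 3 of the 8 had a peak within 50 kb and 2 within 5 kb, beside 13.3% and 5.77% of protein-coding genes. Depth limits *KRT17*, *KRT14* and *KRT5*, which lay at 0 to 8 counts.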
